A study of Mus musculus with 12 samples.

Results

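Cd79a, Cd79b, Ms4a1, Ighm and Igkc are transcripts by which B cells and the antibodies they make can be followed in a whole tissue. They were found in a table of read counts from mouse heart as the 5 of 55357 Ensembl gene identifiers that map to these symbols, and their levels were read in 12 libraries. The libraries come from the hearts of male mice on a C57BL/6J background, 3 in each of 4 groups. WT sham and WT TAC libraries are from wild-type mice, and KO sham and KO TAC libraries from Cd163-/- mice, which lack a scavenger receptor of macrophages. Surgery was done at 8 weeks of age. In transverse aortic constriction (TAC) the aortic arch was tied against a 27-gauge needle, which narrows it and loads the left ventricle with pressure, and sham animals had the operation with no tie. The labels name no Cre line or cell type for the knockout, so it is read as one of the whole animal. The labels number the libraries 1, 2 and 3 in the sham groups and 1, 3 and 5 in the TAC groups, without naming animals, so the p-values rest on the spread between samples that may in part be technical.

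On a mature B cell the antigen receptor is a membrane-bound immunoglobulin, with heavy chains whose constant part comes from Ighm (IgM) or Ighd (IgD) and light chains whose constant part comes mostly from Igkc (kappa). Cd79a and Cd79b encode the paired chains that carry its signal into the cell, and Ms4a1 encodes CD20, a membrane protein of the B lineage. Plasma cells, the antibody-secreting end stage, lower Ms4a1 and the factor Pax5, and make large amounts of immunoglobulin and, for IgM and IgA, of the joining chain Jchain. The mouse heart is known to hold a resident population of B cells, many of them inside its vessels.

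The promoter of Cd79a is a textbook target of the B lineage factors EBF1, PAX5 and Ets proteins, and the transcripts of Ebf1 and Pax5 are among those described below. It is printed together with the promoter of Cxcl13, the B cell chemokine with the largest called change in the lists described here. Both are RefSeq sequences on GRCm38.p6, from 250 bases before to 50 bases after the RefSeq start of the gene, written 5′ to 3′ on the gene's own strand. The table used has an entry for 1 of the 5 genes. Capitals mark the matches found on either strand to 4 short motifs: the partial EBF site ATTCCC (held by 13.1% of 32817 promoters of this length), the Ets core GGAAGT (23.8%), the E-box CAGGTG (20.2%) and the TATA box TATAAA (13.6%). The letters ATTCCC are only 1 side of the full EBF motif, which was not searched for.
Cd79a, chr7:24897247-24897546, plus strand: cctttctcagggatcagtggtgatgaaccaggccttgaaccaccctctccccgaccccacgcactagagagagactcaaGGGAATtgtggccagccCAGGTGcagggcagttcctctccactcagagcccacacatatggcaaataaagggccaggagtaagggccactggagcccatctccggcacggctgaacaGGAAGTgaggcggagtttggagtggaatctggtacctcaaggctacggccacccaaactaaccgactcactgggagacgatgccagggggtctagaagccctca
Cxcl13, chr5:95956689-95956988, plus strand: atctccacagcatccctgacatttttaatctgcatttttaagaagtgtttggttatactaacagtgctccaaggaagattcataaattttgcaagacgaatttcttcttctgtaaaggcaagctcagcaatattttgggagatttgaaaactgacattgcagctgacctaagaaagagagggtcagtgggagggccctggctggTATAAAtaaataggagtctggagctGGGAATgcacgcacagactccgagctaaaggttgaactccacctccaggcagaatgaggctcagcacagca
In the Cd79a window the partial EBF site lay on the minus strand at −171, the E-box at −154 and the Ets core at −54, counted from the RefSeq start. That start lies 116 bases downstream of the GENCODE M21 start given for Cd79a in its own paragraph, so by GENCODE the Ets core falls inside the gene and the other matches before it. In the Cxcl13 window a partial EBF site lay on the minus strand at −21 and the TATA box at −46. The octamer ATGCAAAT, present in 1.74% of all the promoters, had no match in either window. No motif for PAX5 was searched for, so none is marked. Whether the marked Ets core is the site known for Cd79a was not tested. A match to such short letters is a description of the sequence, not evidence of a bound factor.

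Total counts ran from 14150109 to 22602225 per library, so that 1 count equals 0.0411 to 0.0782 CPM (counts scaled to a common library size, by TMM unless another scale is named). Cd163 lay between 13.7 and 29.5 CPM in the WT libraries and between 3.14 and 4.60 CPM in those from KO hearts. The sum of 10 cardiomyocyte markers was 31050 to 67540 CPM. KO sham replicate 1 stood apart from its group: it had the lowest cardiomyocyte sum of the 12 and 51.0% of its counts on the mitochondrial genome, against 30.5% and 31.6% in the other KO sham libraries and 44.0% to 51.3% in KO TAC. In WT TAC replicate 1 that share was 24.8%, against 31.5% and 32.5% in the other WT TAC libraries. Results that rest on these 2 libraries are therefore given with and without them, a choice made after seeing the data.

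All 5 genes passed the filter on low counts. In rank of mean CPM among the 15804 genes tested, Ms4a1, Cd79a and Cd79b stood near the bottom, at the percentiles 4.41, 8.91 and 11.9, with Igkc at 21.9 and Ighm at 43.5. Per kilobase of exon, Ighm had the highest level at 4.35 ± 1.08 CPM per kb (SD, n = 12), followed by Igkc at 3.63 ± 3.08. These neighbours overlapped. Cd79b at 0.615 ± 0.176 and Cd79a at 0.480 ± 0.156 CPM per kb also overlapped each other, and both lay below the lowest Igkc library (1.02). Ms4a1 was lowest, at 0.0821 ± 0.0453 CPM per kb, with its highest library (0.190) below the lowest of Cd79a (0.289). That gap rests on the exon lengths used, which join all annotated exons of a gene: 6187 bases for Ms4a1 and 1457 for Cd79a. In CPM these genes overlapped, at 0.215 to 1.17 for Ms4a1 and 0.422 to 1.09 for Cd79a. The sums over all libraries were 1776 counts for Ighm (95% Poisson interval 1690 to 1860), 409 for Igkc (370 to 451), 191 for Cd79b (165 to 220), 149 for Cd79a (126 to 175) and 106 for Ms4a1 (86.8 to 128).

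Much of the variation of the receptor chains was of the size that counting alone gives. The coefficient of variation over the 12 libraries was 32.4% for Cd79a and 28.6% for Cd79b, where Poisson counting at these depths gives 28.3% and 25.3%. For Ms4a1 it was 55.2% (Poisson 33.3%), for Ighm 24.9% (Poisson 8.28%) and for Igkc 84.7% (Poisson 17.1%). Igkc was thus the most variable of the 5 relative to its depth. Molecular identifiers are not part of these reads, so the intervals and the Poisson values stand for counting error and for nothing else.

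No gene of the 5 passed the edgeR test, with its adjusted p threshold of 0.05, in any of the 7 comparisons of the design. Of all genes tested, 0.0316% were called for TAC against sham in WT, 0% for TAC against sham in KO, 0.00633% for KO against WT after sham and 20.4% for KO against WT after TAC. The difference between the TAC effects called 0%, the mean TAC effect over both genotypes 2.43% and the mean KO effect over both surgeries 28.6%. At an unadjusted p under 0.05 the members numbered 1, 0, 1, 0, 0, 1 and 1 in these comparisons, in the same order, where all genes had 16.2%, 30.9%, 13.5%, 40.8%, 9.19%, 36.6% and 45.6%. DESeq2 called 1 member, Igkc, in the mean TAC effect, where it called 22.2% of all genes, and 0 in the other comparisons. Limma-voom with sample weights called Ms4a1 and Igkc for TAC against sham in KO (63.2% of all genes), Ms4a1 in the difference between the TAC effects (32%), Igkc in the mean TAC effect (54.7%), and 0 members in the other comparisons. In each of these 4 cases the share of the 5 members that was called was below that of all genes. In bulk RNA, a change in the number of B cells cannot be told apart from a change in the RNA each of them holds.

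**Figure D1:**
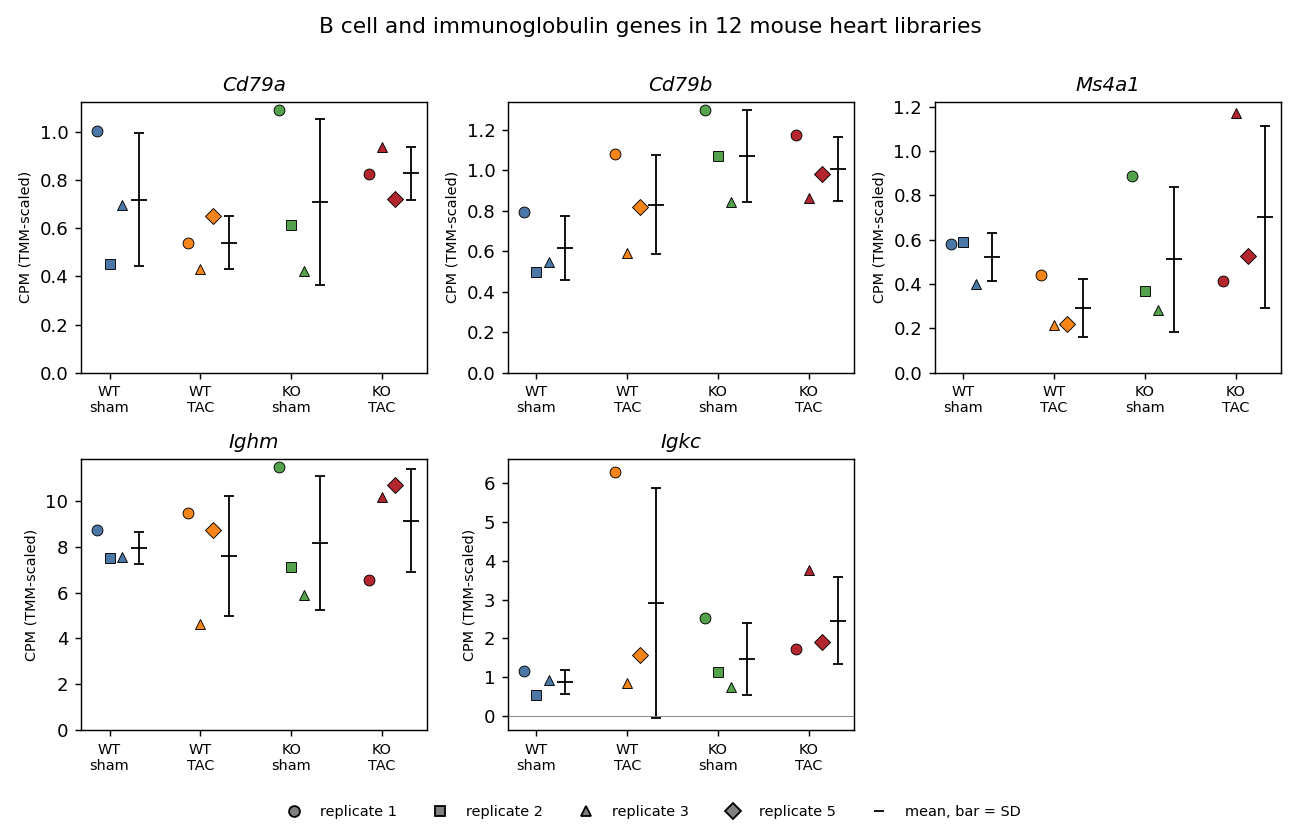
CPM of the 5 genes in each of the 12 libraries, with the mean and SD (n = 3) of each group beside the points; colours mark groups and shapes mark replicate numbers. WT TAC replicate 1 stands at 6.29 CPM for Igkc, above the other 11 libraries, while the groups overlap for most genes.

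Ighm (ENSMUSG00000076617, chromosome 12, 113418558 to 113422730, minus strand), the IgM heavy chain, had the most even group means of the 5. Its levels were 8.74, 7.49 and 7.56 CPM in WT sham and 9.49, 4.62 and 8.71 CPM in WT TAC replicates 1, 3 and 5. In KO sham they were 11.5, 7.11 and 5.90 CPM, and in KO TAC 6.55, 10.2 and 10.7 CPM. The highest and the lowest library of the 12 were thus KO sham replicate 1 and WT TAC replicate 3, and all groups overlapped. The group means were 7.93 ± 0.700, 7.61 ± 2.61, 8.16 ± 2.93 and 9.14 ± 2.25 CPM (SD, n = 3), for sham and TAC in WT and then sham and TAC in KO. No neighbours in the order of these means differed beyond their spread. The log2 change with TAC was −0.06 ± 0.30 (SE) in WT and 0.17 ± 0.31 in KO. KO against WT stood at 0.03 ± 0.30 after sham and 0.26 ± 0.31 after TAC, where the 95% interval ran from −0.40 to 0.93. With mitochondrial genome counts left out of the totals, the group means of Ighm were 12.0, 11.7, 14.2 and 16.2 CPM.

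Igkc (ENSMUSG00000076609, chromosome 6, 70726435 to 70726966, plus strand), the kappa light chain, was the member with the largest change, and that change rested on 1 library. In WT sham it stood at 1.17, 0.545 and 0.945 CPM, and in WT TAC at 6.29, 0.860 and 1.58 CPM. KO sham libraries had 2.53, 1.15 and 0.750 CPM, and KO TAC libraries 1.72, 3.76 and 1.90 CPM. WT TAC replicate 1 held 128 of the 173 counts of its group, and WT TAC replicate 3 lay within the range of WT sham. The log2 change with TAC in WT was 1.73 ± 0.70 (edgeR adjusted p = 0.263), and without WT TAC replicate 1 it was 0.47. In KO the change was 0.77 ± 0.69 (adjusted p = 0.446) with 2 of 3 TAC libraries inside the sham range. Over both genotypes the mean TAC effect was 1.25 ± 0.49 (edgeR adjusted p = 0.0972).

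Without WT TAC replicate 1 and KO sham replicate 1, Igkc passed the edgeR test for TAC against sham in KO, at 1.35 ± 0.43 (adjusted p = 0.0153, with 0.0106 to 0.801 over all alternatives). So did its mean TAC effect, at 0.92 ± 0.31 (adjusted p = 0.0250, with 0.0183 to 0.289 over all alternatives). With these libraries left out, the calls were 6.18% of all genes for TAC against sham in WT, 55.5% for TAC against sham in KO and 48.1% in the mean TAC effect. They were 1.84% for KO against WT after sham, 53.8% for KO against WT after TAC, 36.1% in the difference between the TAC effects and 44.5% in the mean KO effect. Of the 5 members, 0, 1 and 1 were called in the first 3 of these, and 0, 1, 1 and 0 in the other 4. As shares of 5 these are all below the shares of all genes. The direction for Igkc turned with WT TAC replicate 1 in 2 comparisons. KO against WT after TAC was −0.26 ± 0.66 with it and 1.01 without it, and the difference between the TAC effects −0.96 ± 0.97 with it and 0.32 without it.

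The balance of light to heavy chain was highest in the same library, WT TAC replicate 1. Igkc had 0.0727 to 0.133 counts per Ighm count in WT sham, 0.663 in WT TAC replicate 1, and 0.186 and 0.181 in the other WT TAC libraries. In KO sham the ratio was 0.127 to 0.220, and in KO TAC 0.178 to 0.369. All 3 TAC libraries of the WT lay above the WT sham range, and KO TAC overlapped KO sham. These ratios were not tested.

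Cd79b (ENSMUSG00000040592, chromosome 11, 106311341 to 106314762, minus strand), the Ig-beta chain of the receptor, was higher in every KO sham library than in any WT sham library. The values were 0.794, 0.499 and 0.547 CPM in WT sham against 1.30, 1.07 and 0.843 CPM in KO sham, from 37 and 63 counts in all. This was 1 of 5 members with no overlap after sham, where 22.5% of all genes tested had none. The log2 difference was 0.79 ± 0.34, with an edgeR adjusted p of 0.349. After TAC the WT libraries had 1.08, 0.591 and 0.817 CPM and the KO libraries 1.17, 0.861 and 0.983 CPM, which overlapped, at a difference of 0.27 ± 0.34. The mean KO effect was 0.53 ± 0.24 (adjusted p = 0.104). With TAC, Cd79b stood at 0.44 ± 0.34 in WT and −0.07 ± 0.33 in KO.

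Cd79a (ENSMUSG00000003379, chromosome 7, 24897381 to 24902197, plus strand), the Ig-alpha chain that pairs with Cd79b, passed no comparison. It had 1.01, 0.454 and 0.696 CPM in WT sham, and 0.541, 0.430 and 0.653 CPM in WT TAC. The KO sham values were 1.09, 0.616 and 0.422 CPM, and those of KO TAC 0.828, 0.939 and 0.721 CPM. After TAC every KO library lay above every WT library, as 46.9% of all genes tested did in one direction or the other, and Cd79a was 1 of 5 members that did. The difference was 0.61 ± 0.43 on the log2 scale (edgeR adjusted p = 0.304), from 31 and 35 counts. For TAC against sham no member was free of overlap, in WT (27.1% of all genes) or in KO (22.4%), and Cd79a stood at −0.40 ± 0.42 and 0.26 ± 0.42.

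Ms4a1 (ENSMUSG00000024673, chromosome 19, 11249675 to 11266241, minus strand), which encodes CD20, had the fewest counts, 4 to 15 per library. WT sham libraries stood at 0.582, 0.590 and 0.398 CPM, and WT TAC at 0.442, 0.215 and 0.218 CPM. KO sham libraries stood at 0.887, 0.370 and 0.281 CPM, and KO TAC at 0.414, 1.17 and 0.525 CPM. WT TAC had the lowest group mean, 0.292 ± 0.131 CPM, and KO TAC the highest, 0.704 ± 0.410 CPM, but KO TAC replicate 1 lay below WT TAC replicate 1. KO against WT after TAC stood at 1.22 ± 0.57 (edgeR adjusted p = 0.131), and the difference between the TAC effects at 1.31 ± 0.78 (adjusted p = 0.613). Without WT TAC replicate 1 and KO sham replicate 1 these were 1.65 ± 0.58 (adjusted p = 0.0274, with 0.0274 to 0.461 over all alternatives) and 2.30 ± 0.78 (adjusted p = 0.0322, with 0.0305 to 0.929 over all alternatives). WT TAC then has 4 counts in each of its 2 remaining libraries.

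**Figure D2:**
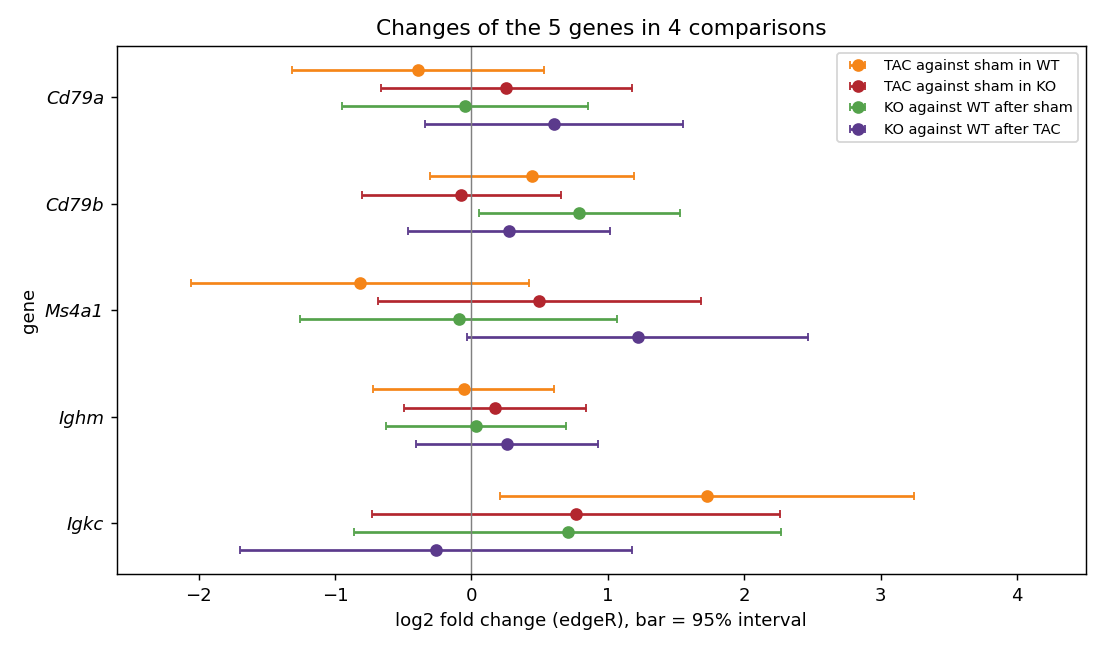
Log2 fold changes of the 5 genes in 4 comparisons, from edgeR over 12 libraries; points are estimates and bars are 95% intervals. Most intervals span 0, and the widest belong to Igkc, which stands at 1.73 for TAC against sham in WT.

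Across the 12 libraries the members moved together only in part. Pearson's r of log2 CPM between pairs ran from 0.25 for Cd79b with Ms4a1 to 0.70 for Ms4a1 with Ighm, and the paired receptor chains Cd79a and Cd79b had 0.49. These are descriptions over libraries that share groups, depth and mitochondrial content. The genes outside the set whose log2 CPM was most like each member were Camkmt for Cd79a (r = 0.94), Gpr161 for Cd79b (0.92), S100pbp for Ms4a1 (0.93), Chtf18 and Adamts5 for Ighm (0.93 each), and C4a for Igkc (0.96). Itgal, the alpha chain of the leukocyte integrin LFA-1, was among the first 5 for Ms4a1 at 0.92. For Igkc the first 5 also held Il20rb (0.93), Lpar6 (0.92) and H2-T23 (0.92). Each is the top of 15804 genes ranked over only 12 libraries.

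The other antibody transcripts differed more between libraries than Ighm did. Of 14 genes for constant regions and the joining chain, 6 passed the filter, including Ighm and Igkc, and 0 were called in any of the 7 comparisons. Their median log2 change with TAC in WT was 0.90, where all genes tested had 0.01, and in KO it was 0.70 (all genes −0.02). KO against WT had a median of 0.45 after sham (all genes 0.01) and −0.34 after TAC (all genes −0.02). At an unadjusted p under 0.05 there were 3, 0, 1 and 1 of these 6 genes in the 4 comparisons, where all genes had 16.2%, 30.9%, 13.5% and 40.8%. Constant-region genes are near-identical copies in part, and the sources used here do not say how reads that match several of them were counted, so the split between them is uncertain.

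Igha, the heavy chain of IgA, the antibody class of mucosal plasma cells, was seen mostly in WT TAC. Its counts were 3, 1 and 0 in WT sham and 84, 6 and 25 in WT TAC. KO sham had 13, 1 and 0 counts, and KO TAC 1, 4 and 3. Every WT TAC library lay above every WT sham and every KO TAC library. Of all genes tested, 27.1% had no overlap for TAC against sham in WT and 46.9% for KO against WT after TAC. The fitted log2 change with TAC in WT was 4.75 ± 1.33 (edgeR adjusted p = 0.173), and KO against WT after TAC stood at −3.32 ± 1.21 (adjusted p = 0.0661). The difference between the TAC effects was −5.20 ± 2.02 (adjusted p = 0.505). Without WT TAC replicate 1 the change in WT was 3.55 and KO against WT after TAC −2.11, and without KO sham replicate 1 the difference between the TAC effects was −1.98. With limma-voom these 3 values were 3.08, −2.26 and −0.62. Such fitted values rest on group sums of 4, 115, 14 and 8 counts and depend on the prior count. Igha made up 23.6% of the heavy-chain constant counts in WT TAC replicate 1 (exact 95% binomial interval 19.3% to 28.4%), against 3.64% (1.35% to 7.75%) and 8.99% (5.90% to 13.0%) in replicates 3 and 5. In WT sham it made up 0% to 1.07%, and the 0 of 257 counts in replicate 3 allows a share of up to 1.43%.

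Jchain, the chain that links IgA and IgM into polymers, was highest in WT TAC replicate 1, as Igha was, at 1.82 CPM, and next in KO TAC replicate 3, where Igha was low, at 1.02 CPM. It had 2, 3 and 3 counts in WT sham and 37, 11 and 7 in WT TAC, which do not overlap, and 8, 3 and 6 in KO sham against 6, 13 and 7 in KO TAC, which do. For TAC against sham 27.1% of all genes tested had no overlap in WT, and 22.4% in KO. The log2 change with TAC was 2.78 ± 0.73 in WT (edgeR adjusted p = 0.154) and 1.05 ± 0.70 in KO (adjusted p = 0.312). The mean TAC effect over both genotypes, 1.92 ± 0.51, had an adjusted p of 0.0531. Without WT TAC replicate 1 and KO sham replicate 1 it was 1.73 ± 0.43 (adjusted p = 0.00454, with 0.00164 to 0.256 over all alternatives). The change in WT without those libraries was 1.85 ± 0.63 and did not pass (adjusted p = 0.0894).

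Ighg2c, the IgG2c heavy chain of the C57BL/6 strain, was lower in KO than in WT in all sham libraries, though no comparison of it passed with 12 libraries. After sham 22.5% of all genes tested had no overlap between the genotypes, in one direction or the other. WT sham had 4.29, 3.63 and 3.63 CPM and KO sham 2.59, 0.699 and 0.234 CPM. WT TAC had 1.72, 2.58 and 3.92 CPM and KO TAC 2.97, 1.41 and 1.71 CPM, which overlapped. KO against WT after sham stood at −1.79 ± 0.61 (edgeR adjusted p = 0.293) and the mean KO effect at −1.11 (adjusted p = 0.0662). With both libraries that stand apart left out, the values were −2.98 ± 0.41 (adjusted p = 0.00382, with 0.000275 to 0.662 over all alternatives) and −1.82 ± 0.27 (adjusted p = 0.000135, with 0.000126 to 0.149). Its share of the heavy-chain constant counts was 28.4% to 30.5% in WT sham and 3.38% to 14.7% in KO sham, where Ighm made up 64.9% to 85.1% against 58.9% to 63.0%. Ighd, the IgD heavy chain that naive B cells carry beside IgM, had 0.681 to 1.59 CPM in WT sham, 1.03 to 1.77 CPM in WT TAC, 0.797 to 2.59 CPM in KO sham and 1.57 to 2.97 CPM in KO TAC. These groups overlapped in part and no comparison of it passed.

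**Figure D3:**
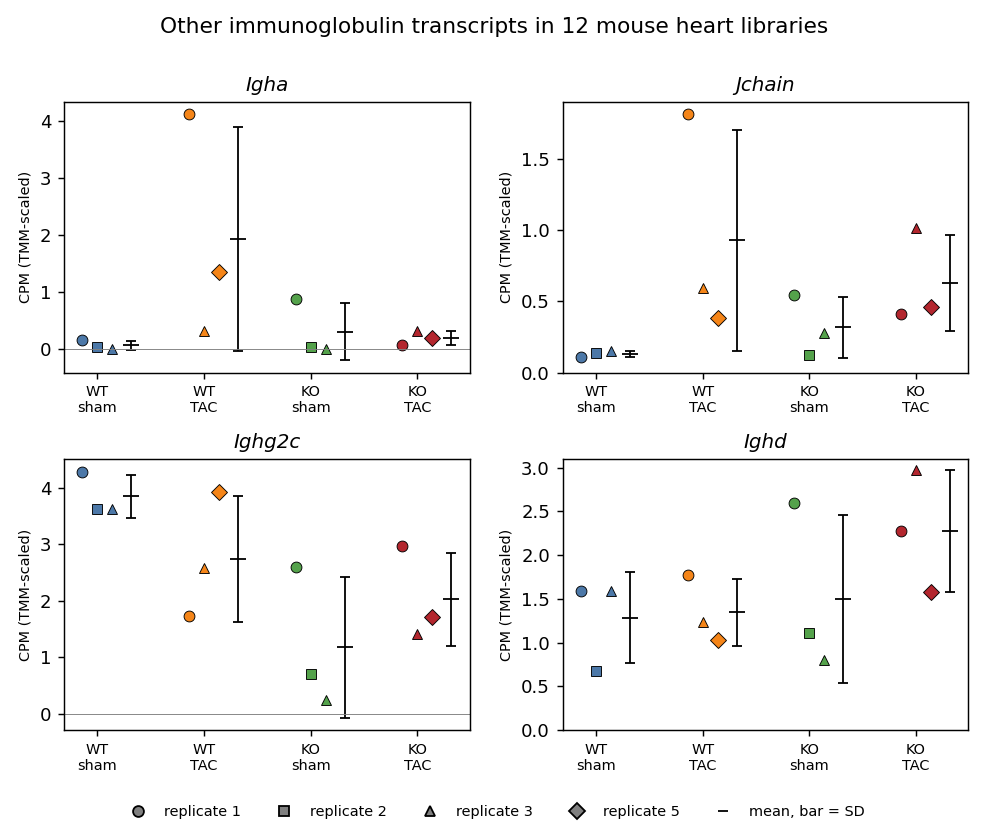
CPM of Igha, Jchain, Ighg2c and Ighd in each of the 12 libraries, with the mean and SD (n = 3) of each group. Igha and Jchain are highest in WT TAC replicate 1, at 4.13 and 1.82 CPM, and Ighg2c is lower in all 3 KO sham libraries than in any WT sham library. Of all genes tested, 22.5% had no overlap between these sham groups, in one direction or the other.

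Variable segments, which encode the antigen-binding ends of the chains and differ from clone to clone, were spread thinly. Of 348 heavy, kappa and lambda segments in the table, 107 had a count, 267 counts in all, and 0 had enough to be tested. Their sums were 56 counts in WT sham (95% Poisson interval 42.3 to 72.7), 122 in WT TAC (101 to 146), 59 in KO sham (44.9 to 76.1) and 30 in KO TAC (20.2 to 42.8). Scaled, the group means were 0.938 ± 0.421, 2.11 ± 0.704, 0.933 ± 0.306 and 0.715 ± 0.389 CPM (SD, n = 3). All 3 WT TAC libraries, at 2.85, 1.45 and 2.02 CPM, lay above every other library, of which the highest had 1.27 CPM. The segments with the most counts were Igkv10-96 with 14 and Igkv1-117 with 11. Igkv10-96 had 7 of its 14 in WT TAC replicate 1, where the segments had 58 counts in all.

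Pax5, the factor that holds B cells to their identity, was called by genotype, as Cd79a and Cd79b were not, though the difference between these genes was not tested. It had 0.635, 0.318 and 0.249 CPM in WT sham and 0.956, 0.493 and 0.328 CPM in KO sham. After TAC it had 0.344, 0.376 and 0.381 CPM in WT and 0.828, 2.27 and 1.31 CPM in KO. Every KO TAC library lay above every WT TAC library, where 46.9% of all genes tested had no overlap, and replicate 1 was the highest of both sham groups. KO against WT after TAC was 1.97 ± 0.52 (edgeR adjusted p = 0.0287), and the mean KO effect was 1.25 ± 0.37 (adjusted p = 0.0322).

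Of 25 genes of the receptor complex and its signalling, 23 were tested, and 2 were higher and 0 lower in KO than in WT after TAC, where 8.63% of all genes were called higher among 20.4% called. With library totals in place of TMM, 3.26% were called higher among 22.3%. The 2 called genes of the list were Malt1 (1.31 ± 0.29, adjusted p = 0.0206) and Rasgrp3 (0.84 ± 0.22, adjusted p = 0.0271). Malt1 is the protease that carries the receptor signal to NF-κB, and Rasgrp3 an exchange factor for Ras. Both are made in other cells too. Malt1 stood at 13.9 to 25.3 CPM in WT TAC and 44.3 to 50.6 CPM in KO TAC. The median of the 23 was 0.48, against −0.02 for all genes. In the mean KO effect 6 of 23 were higher and 0 lower, where 13.9% of all genes were called higher. Beside Malt1 and Rasgrp3 these were Cd22, an inhibitory receptor (0.94 ± 0.32), the kinases Lyn (0.42 ± 0.11) and Blk (0.69 ± 0.21), and Prkcb, a kinase below the receptor (0.85 ± 0.24). Group means ran from 22.1 to 32.4 CPM for Lyn, 4.72 to 8.28 for Blk and 1.35 to 3.69 for Prkcb. Those of Cd22 ran from 0.343 to 0.792 CPM and those of Cd79a from 0.541 to 0.829 CPM. Which cells these transcripts came from was not tested. No gene of the list was called for TAC against sham in either genotype, with 5 of 23 at an unadjusted p under 0.05 in WT (16.2% of all genes) and 3 in KO (30.9%).

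The list for B cell identity had 16 of 26 genes tested, and 3 were higher and 0 lower in KO than in WT after TAC, against the 8.63% of all genes called higher. Beside Pax5 these were Ebf1 (0.82 ± 0.20, adjusted p = 0.0249), a lineage factor that fat precursors and pericytes also express, and Cd24a (1.39 ± 0.40, adjusted p = 0.0349), which many immature and epithelial cells carry. The median of the 16 was 0.77, against −0.02 for all genes. The mean KO effect had 5 of 16 higher and 0 lower, against 13.9% of all genes higher, namely Cd22, Blk, Pax5, Ebf1 (0.48 ± 0.14) and Cd24a (0.82 ± 0.28). Cd22 and Blk are in both lists. In the mean TAC effect 1 gene of the 16 was lower, where 1.5% of all genes were called lower, and 0 were higher. It was Ralgps2, an exchange factor for Ral, at −0.64 ± 0.14 (edgeR adjusted p = 0.0468). With 1 library left out in turn, it passed without KO sham replicate 1 and failed without any other. Of 14 plasma cell genes 11 were tested and 0 were called in any comparison, with 4 at an unadjusted p under 0.05 for TAC against sham in WT (16.2% of all genes). Of these Prdm1, the factor that drives plasma cell formation, stood lowest at −1.10 ± 0.28 (adjusted p = 0.150), while Jchain stood highest.

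Signals that draw B cells or keep them alive had 13 of 20 genes tested. After TAC, 2 were higher and 0 lower in KO than in WT, where 8.63% of all genes were higher, and the median was 0.75 (all genes −0.02). Cxcl13, the chemokine that gathers B cells into follicles, had 3, 3 and 1 counts in WT TAC and 36, 26 and 18 in KO TAC. Its sham libraries held 0 to 4 counts in both genotypes, so that KO TAC was the high group by every library. Of all genes tested, 46.9% had no overlap between KO TAC and WT TAC, and 22.4% between KO TAC and KO sham. The fitted change was 3.89 ± 0.63 (edgeR adjusted p = 0.0116). The difference between the TAC effects was 4.74 ± 1.13 and did not pass (adjusted p = 0.300), and without WT TAC replicate 1 and KO sham replicate 1 it was 6.30 ± 1.28 (adjusted p = 0.00177, with 0.00177 to 0.809 over all alternatives). Il4ra, the receptor chain for interleukins 4 and 13, stood at 0.77 ± 0.22 (adjusted p = 0.0363). Cd40, through which T cells help B cells, and Ltbr, the lymphotoxin beta receptor, were higher with Il4ra in the mean KO effect, at 0.94 ± 0.19 and 0.28 ± 0.10. These were 3 of 13, where 13.9% of all genes were higher. With 1 library left out in turn, Cd40 and Il4ra passed in all 12 fits of the mean KO effect, and Ltbr in 2. Tnfsf13b, which encodes the survival factor BAFF, had 1.47 to 5.31 CPM in WT TAC and 4.85 to 5.44 CPM in KO TAC, at 0.80 ± 0.51 (adjusted p = 0.253).

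**Figure D4:**
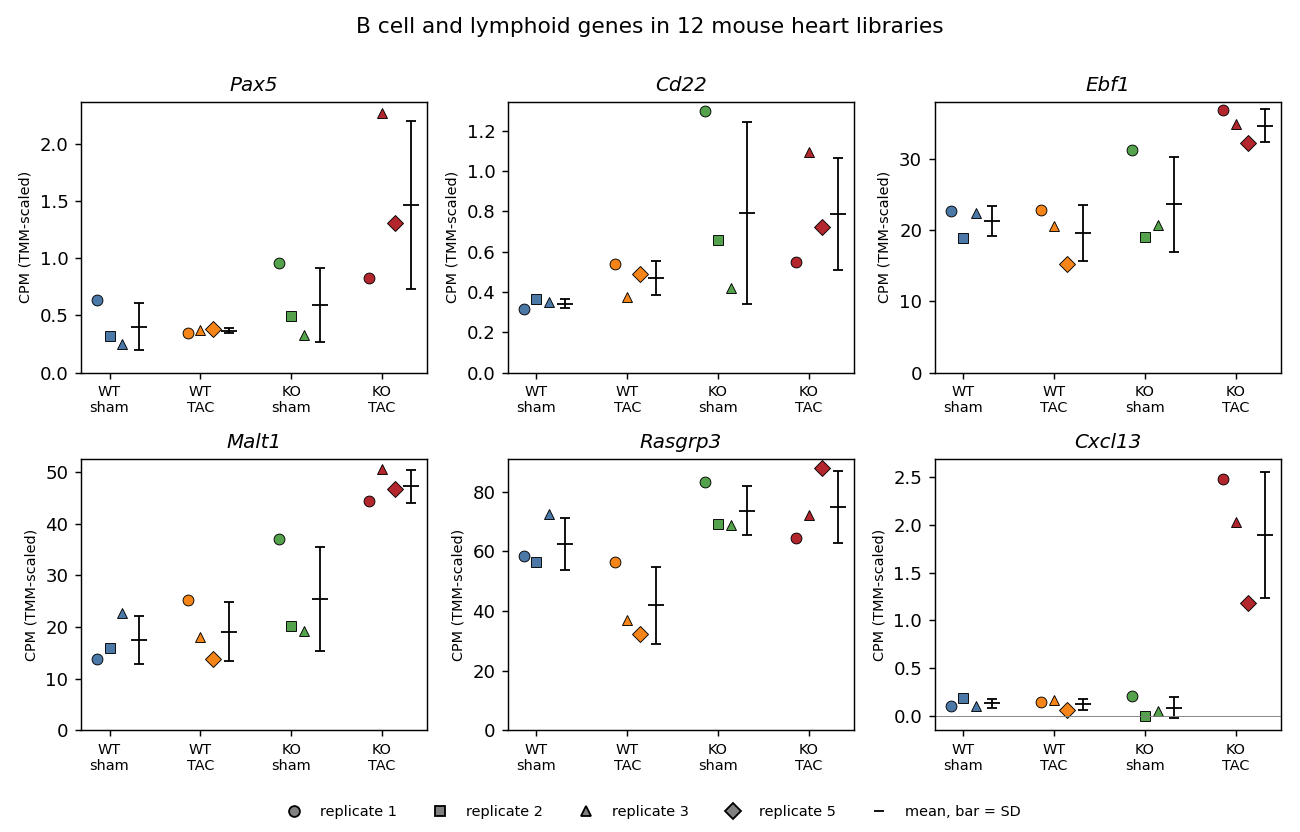
CPM of 6 genes of the B cell lists in each of the 12 libraries, with the mean and SD (n = 3) of each group. All 6 are among the genes called by genotype in these same libraries, so their separation adds no support. In all 6 panels the 3 KO TAC libraries lie above the 3 WT TAC libraries, for Cd22 only just. Of all genes tested, 46.9% had no overlap between these groups, in one direction or the other. KO sham replicate 1 is the highest KO sham library in each panel.

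The list calls by genotype after TAC changed with most of the TAC libraries. Without WT TAC replicate 3 or 5, or without KO TAC replicate 1, 3 or 5, the counts of the receptor and identity lists both fell to 0, while the calls over all genes fell from 3219 to between 43 and 437. Cxcl13 passed without WT TAC replicate 5 or KO TAC replicate 5 and failed without replicate 3 of WT TAC or replicates 1 or 3 of KO TAC. Il4ra failed without any of these 5 libraries and also without any 1 WT sham library, and Cd24a also without WT sham replicate 1. With library totals Ebf1, Rasgrp3 and Il4ra did not pass, at 0.58, 0.60 and 0.53. In the mean KO effect the receptor list fell to 0 without replicate 1 of WT sham, to 1 without replicates 2 of WT sham, 5 of WT TAC or 3 of KO TAC, and to 2 or 3 without replicates 3 of WT sham, 3 of WT TAC or 5 of KO TAC. The identity list fell to 0 without replicates 1 or 3 of WT sham, 5 of WT TAC or 3 of KO TAC, to 1 without replicates 2 of WT sham, 3 of WT TAC or 1 or 5 of KO TAC, and to 3 without replicate 1 of KO sham. With WT TAC replicate 1 and KO sham replicate 1 both left out, the genes called higher after TAC were 9 of the receptor list, 6 of the identity list and 7 of the recruitment list, where 26.1% of all genes were called higher. In the mean KO effect, where 21% of all genes were then called higher, they were 10, 6 and 3.

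Markers of several other cells moved with the same libraries. The summed level of 11 B cell markers, which include the 5 members, was 18.4 to 21.9 CPM in WT sham, 16.9 to 25.3 in WT TAC, 19.9 to 32.4 in KO sham and 22.5 to 32.7 in KO TAC. The largest parts of this sum were Ighm and Blk, with group means of 7.61 to 9.14 and 4.72 to 8.28 CPM. Blk, Cd22 and Pax5 of these markers were called by genotype in these same libraries. All 11 had counts in every group, and the highest KO sham library was replicate 1. The 16 T cell markers summed to 8.12 to 19.5 CPM in WT TAC and 12.2 to 26.4 CPM in KO TAC, and the 8 markers of all leukocytes to 54.1 to 75.3 and 78.2 to 89.0 CPM. The 9 dendritic cell markers summed to 33.9 to 58.4 CPM in WT TAC and 67.9 to 77.8 CPM in KO TAC, and KO sham replicate 1 was the highest of all at 79.1 CPM. The 13 macrophage markers overlapped, at 282.8 to 449.8 and 326.9 to 343.8 CPM. The 9 adipocyte markers summed to 12.2 to 15.2 CPM in WT TAC and 48.1 to 67.1 CPM in KO TAC, and 8 mesothelial markers to 5.05 to 7.67 and 28.7 to 42.6 CPM. The 10 cardiomyocyte markers summed to 61490 to 63740 CPM in WT TAC and 39710 to 42750 CPM in KO TAC. Blood markers, 10 of red cells and platelets, overlapped at 114.8 to 218.9 and 129.0 to 280.3 CPM.

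The 7 genes listed for lymphoid precursors, of thymus and marrow, did not share a pattern across the libraries. Cd1d1 had between 29 and 106 counts in each library. In WT sham it stood at 2.70 to 4.08 CPM, where the whole list summed to 2.75 to 4.13 CPM. Ptcra had 1 or 2 counts in each group, and Rag2 had 0 to 2. Rag1 and Dntt were seen mostly in KO sham replicate 1 and KO TAC replicate 5. Rag1, a recombinase of antigen-receptor genes, had 24 counts in KO sham replicate 1, 13 in KO TAC replicate 5, 1 each in KO sham replicate 2 and KO TAC replicate 3, and 0 in the other 8. Dntt, which adds bases at the joints, had 24 counts in KO sham replicate 1 and 11 in KO TAC replicate 5. The B lineage precursor gene Igll1 had 2 counts in WT sham and was at 0 in WT TAC, KO sham and KO TAC. There a count of 0 allows up to 3 counts, or 0.123 to 0.235 CPM per library. Vpreb1, another B lineage precursor gene, went the other way, with 0 counts in WT sham, 1 in WT TAC, 5 in KO sham and 2 in KO TAC. Of its KO sham counts 4 were in replicate 2, at 0.164 CPM, and not in replicate 1, where Rag1 and Dntt were highest. The part that other cells have in the differences of the B cell genes was not tested. This holds for cardiomyocytes, fat, mesothelium, T cells, dendritic cells, leukocytes as a whole and precursor cells. The part of the mitochondrial share of the counts was not tested either.

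**Figure D5:**
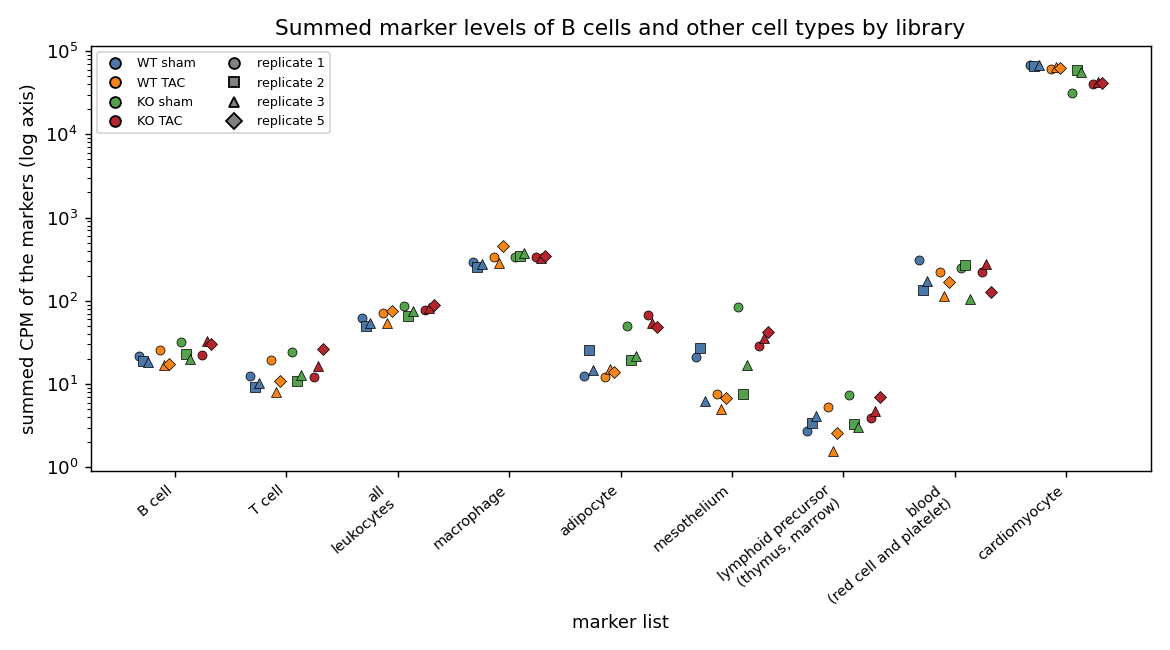
Summed CPM of 9 marker lists in each of the 12 libraries, on a log axis; colours mark groups and shapes mark replicate numbers. KO TAC libraries and KO sham replicate 1 are the highest for adipocyte markers and the lowest for cardiomyocyte markers.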

How the data were processed

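Poly(A)-selected RNA was read as 150 bp pairs, per the labels' protocols. The authors deposited raw counts of reads for each Ensembl gene, as whole numbers, and the submitters' processing notes name HISAT2. The sources used here do not give the counter, build, annotation, strand setting or time after surgery, so reads of overlapping antisense genes cannot be told apart.

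Symbols were matched for 52081 of 55357 identifiers. Coordinates and exon lengths are from GENCODE M21 (GRCm38), which may not be the authors' annotation. The quasi-likelihood test of edgeR 4.0.16 (R 4.3.3) was run robustly on 12 libraries after TMM scaling and filterByExpr, with 1 coefficient per group. It left 8 residual degrees of freedom. P-values were adjusted by Benjamini-Hochberg over 15804 genes, at a threshold of 0.05. The procedure was tested on simulated counts drawn with the fitted spread, in which no library stands apart from its group. That test therefore does not cover the effect of such libraries. Likeness used log2 CPM with a prior count of 2.

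The alternatives were DESeq2 size factors or library totals, counts without mitochondrial genes, DESeq2 1.42.0, limma-voom (limma 3.58.1), a fit that is not robust, other filters, a replicate block, only the compared groups, and each library left out. The members and gene lists were chosen with earlier results of these data known, and 1 listed gene is not reported here. Named were the 5 members, called list genes, up to 2 list genes with the smallest p, the 5 most alike genes and up to 4 variable segments. Further genes, such as Ighg2c, Ighd, Tnfsf13b, Rag1 and Dntt, were chosen after their values were seen.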

Additional observations from a re-analysis of the deposited data

How the results depend on the processing

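The 53 log2 changes of the members and named genes were recomputed under 1165 alternatives in all: 952 kept direction and side of the threshold, 140 lost the call, 43 gained it and 30 changed sign. Sign changes were mostly of members near 0, and the cause of none was tested. Library totals moved the median of all genes to −0.235 for KO against WT after TAC. They gave 0.116 for Ighm with TAC in WT and 0.046 for Cd79a in KO against WT after sham. For the receptor, identity and recruitment lists they gave 1, 2 and 1 higher genes after TAC, and 1 and 1 for the receptor and identity lists in the mean KO effect (of all genes, 3.26% were higher after TAC and 7.52% in the mean KO effect). Limma-voom called 2 members for TAC in KO, 1 in the difference between the TAC effects and 1 in the mean TAC effect, where it called 63.2%, 32% and 54.7% of all genes. It called 6 receptor, 5 identity and 7 recruitment genes higher after TAC (23.2% of all genes). Its values were 0.162 for Cd79b with TAC in KO, −0.372 for Ighm and −0.057 for Igkc after sham, 0.626 for Igkc after TAC and 0.683 for Igkc in the difference between the TAC effects. DESeq2 called 1 member in the mean TAC effect (22.2% of all genes) and 4 recruitment genes higher after TAC (13.6%). A filter at a mean of 1 CPM left 2 members, Ighm and Igkc, and 1 recruitment gene called. The fit of only the compared groups gives no value for the difference or the mean effects, and it dropped Ms4a1 for KO against WT after TAC.

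With KO sham replicate 1 and WT TAC replicate 1 both left out, members called were 1 for TAC in KO, 1 for KO against WT after TAC, 1 for the difference and 1 for the mean TAC effect. The receptor, identity and recruitment lists had 9, 6 and 7 higher genes after TAC, and the receptor list 10 in the mean KO effect. Cd79b stood at 0.075 with TAC in KO, Ighm at −0.267 after sham, and Igkc at 1.001 after TAC and 0.860 in the difference.

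The replicate numbers gave no consistent pairing: r of same-numbered deviations ran from −0.19 to 0.62 over 14 pairs. The value of 0.62 was that of WT TAC replicate 1 with KO sham replicate 1, the libraries that stand apart. Between the genotypes within each surgery, 1 of 12 libraries was nearest its own number. That count did not compare WT TAC with KO sham. With the replicate block Igkc stood at 0.124 for KO against WT after TAC, and the identity list had 2 higher genes in the mean KO effect.

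With 1 library left out in turn, the ranges with TAC in WT were −0.247 to 0.195 for Ighm. With TAC in KO they were −0.001 to 0.648 for Cd79a, −0.208 to 0.066 for Cd79b, −0.067 to 1.058 for Ms4a1 and −0.002 to 0.481 for Ighm. For KO against WT after sham they were −0.439 to 0.268 for Cd79a, −0.665 to 0.193 for Ms4a1 and −0.279 to 0.211 for Ighm. Igkc ran from −0.692 to 1.009 after TAC and from −1.393 to 0.315 in the difference. After TAC the receptor, identity and recruitment lists each ran from 0 to 6 higher genes. In the mean KO effect the receptor list ran from 0 to 10 and the identity list from 0 to 7, and members called in the mean TAC effect from 0 to 1. At 4 to 26 counts per library, Cd79a, Cd79b and Ms4a1 are limited by depth.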
